A study of Mus musculus with 6 samples.

Results

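The MS4A genes encode membrane proteins that cross the membrane 4 times, and Tmem176a and Tmem176b encode related 4-span proteins. The 10 genes described here are Ms4a4a, Ms4a4c, Ms4a6b, Ms4a6c, Ms4a6d, Ms4a7, Ms4a8a, Ms4a14, Tmem176a and Tmem176b, out of 54532 genes in the deposited table. They were taken by gene symbol and were chosen by family with their levels in the p16High to p16Low comparison already known, so the differences between the groups below are a description of these genes and not an independent test. Of the 10, 6 reached the level needed for testing, an FPKM (fragments per kilobase of transcript, scaled to library size) of at least 1 in 3 or more libraries. The other 4 are given as read counts.

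The cells were F4/80+ peritoneal cells of C57BL/6 p16-Cre/Rosa26-mtmg mice kept for 12 months. In these mice a red membrane protein, tdTomato, is replaced by green EGFP once Cre made under p16 control has acted, and all libraries of both groups come from this genotype. Cells were enriched on magnetic beads for F4/80, a macrophage surface protein, and split by flow sorting, the EGFP cells giving 3 libraries termed p16High and the tdTomato cells 3 termed p16Low. EGFP marks cells in which Cre has acted at any earlier time, and nothing in the labels ties a library to its own animal, so p-values here reflect the library-to-library spread, which may be technical.

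The libraries held 16.52 to 19.57 M reads in p16High and 18.46 to 20.87 M in p16Low. Cdkn2a, the gene that encodes p16, averaged 6.78 ± 1.20 FPKM in p16High, against 1.09 ± 0.559 FPKM in p16Low (SD, n = 3 each). All 7 macrophage markers listed (Adgre1, Csf1r, Itgam, Cd68, Mertk, Fcgr1 and Lyz2) were present in every library. p16Low replicate 2 stood apart, at 48.87 on the first principal component, against -15.89 to -4.70 for the other 5 libraries.

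Most mouse Ms4a genes lie side by side on 1 stretch of chromosome 19 and are expressed in different blood cells. The proteins are best known as partners of other receptors: Ms4a1 encodes CD20 of B cells, Ms4a2 encodes the beta chain of the IgE receptor of mast cells, MS4A4A works with the receptor Dectin-1 in macrophages, and mouse Ms4a6d acts with the inhibitory receptor Vsig4. Mouse Ms4a8a has been described as a marker of macrophages exposed to glucocorticoid and IL-4. Tmem176a and Tmem176b encode cation channels of intracellular vesicles in myeloid cells, and in mice Tmem176b has been linked to restraint of the NLRP3 inflammasome and to MHC class II presentation by dendritic cells.

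The sequences of 3 near copies are shown because they bear on how well reads can be assigned between Ms4a6b, Ms4a6c and Ms4a6d. The lines give the first 90 coding bases, read from GENCODE M21 transcripts (GRCm38), with capitals where a base differs from Ms4a6c.
Ms4a6c: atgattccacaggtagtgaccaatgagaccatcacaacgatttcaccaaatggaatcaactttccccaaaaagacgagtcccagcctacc
Ms4a6b: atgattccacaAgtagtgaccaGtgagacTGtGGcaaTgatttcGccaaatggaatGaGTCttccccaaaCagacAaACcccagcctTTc
Ms4a6d: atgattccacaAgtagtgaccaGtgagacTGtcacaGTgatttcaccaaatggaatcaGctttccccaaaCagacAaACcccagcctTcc
In this stretch Ms4a6b differs from Ms4a6c at 18 bases and Ms4a6d at 12. Over the aligned coding sequences, gaps left out, Ms4a6b and Ms4a6c were identical at 85.3% of bases, Ms4a6b and Ms4a6d at 81.3%, and Ms4a6c and Ms4a6d at 79.1%. Of the 50-base windows of Ms4a6c transcripts, 5.85% also occur in Ms4a6b, and of those of Ms4a6d 2.31% do. Most 50-base stretches therefore differ between the copies.

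The start regions of Ms4a6c and Ms4a6b are shown because they are alike while the levels of the genes are far apart. The windows run from 250 bases before to 50 bases after the annotated start (RefSeq, GRCm38.p6, plus strand), Ms4a6c at chr19:11469118-11469417 and Ms4a6b at chr19:11518309-11518608, and the capitals mark the longest run they share, 48 bases.
Ms4a6c: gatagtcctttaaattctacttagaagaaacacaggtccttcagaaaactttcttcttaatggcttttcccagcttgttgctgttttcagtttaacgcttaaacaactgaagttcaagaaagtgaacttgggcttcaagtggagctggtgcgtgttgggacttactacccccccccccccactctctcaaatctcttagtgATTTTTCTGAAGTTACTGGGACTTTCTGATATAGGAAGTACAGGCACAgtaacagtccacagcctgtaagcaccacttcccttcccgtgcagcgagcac
Ms4a6b: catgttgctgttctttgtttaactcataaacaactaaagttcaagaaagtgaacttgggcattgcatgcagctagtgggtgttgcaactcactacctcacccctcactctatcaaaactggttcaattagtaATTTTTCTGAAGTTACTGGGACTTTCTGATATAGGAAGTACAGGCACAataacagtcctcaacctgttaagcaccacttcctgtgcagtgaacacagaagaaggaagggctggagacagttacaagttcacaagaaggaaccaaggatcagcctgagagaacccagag
Over the best local alignment the windows were identical at 193 of 216 bases (89.4%). The shared run ends 2 bases before the annotated start of Ms4a6c and 71 bases before that of Ms4a6b.

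The region between Tmem176a and Tmem176b is shown because the genes are read outward from it and overlap there. This window of Tmem176a, on the plus strand at chr6:48841233-48841532 (RefSeq, GRCm38.p6), holds an annotated start of Tmem176a at 48841483 and one of Tmem176b, on the minus strand, at 48841374, 109 bases apart. Capitals mark TTCCTC, the reverse complement of GAGGAA, a core letter string bound by the myeloid factor PU.1.
Tmem176a: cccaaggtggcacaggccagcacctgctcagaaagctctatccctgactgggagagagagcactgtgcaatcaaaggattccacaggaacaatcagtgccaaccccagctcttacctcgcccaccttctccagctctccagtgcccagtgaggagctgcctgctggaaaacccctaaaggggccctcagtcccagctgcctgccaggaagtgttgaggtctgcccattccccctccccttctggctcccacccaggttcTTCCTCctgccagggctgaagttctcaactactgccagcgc
RefSeq gave 13 such windows for 9 of the 10 genes, and none was used for Ms4a6d. GAGGAA, searched on both strands, was found in 6 of the 13, 3 of them overlapping windows at the Tmem176 genes, and in 28.3% of all 32851 windows of 300 bases. TATAAA was found in 1 of the 13 (Ms4a14) against 13.6% of all windows, CCAAT in 2 (Ms4a8a and Ms4a7) against 37.4%, GGGCGG in 0 against 35.7%, AGGTCA in 1 (Ms4a8a) against 16.3% and the interferon response element in 0 against 3.44%. No site was searched beyond these windows.

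In these macrophages 4 of the genes carried nearly all of the family's RNA: Ms4a8a, Ms4a6d, Tmem176b and Tmem176a. Ms4a6c, Tmem176b and Tmem176a were lower in all p16High libraries than in any p16Low library, by 1.98-fold, 1.60-fold and 1.58-fold. Ms4a6d was slightly higher in all p16High libraries, and Ms4a8a and Ms4a7 overlapped between the groups. With limma and Benjamini-Hochberg adjustment at 0.05 across all 10895 genes tested, 2 of the 6 tested genes passed, Ms4a6c and Tmem176b, both lower in p16High, where 0.890% of all genes passed in either direction and 0.716% passed as lower. Lower without overlap were 3 of the 6, against 7.45% of all genes, and higher without overlap 1, against 8.40%. Because the genes were selected on this same contrast, nothing is read from these shares. In bulk libraries fewer cells of a type and less RNA per cell cannot be told apart. The median log2 fold change of the 6 genes was -0.29, against 0.05 for all genes tested, with 3 values below 0 and 3 above.

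**Figure D1:**
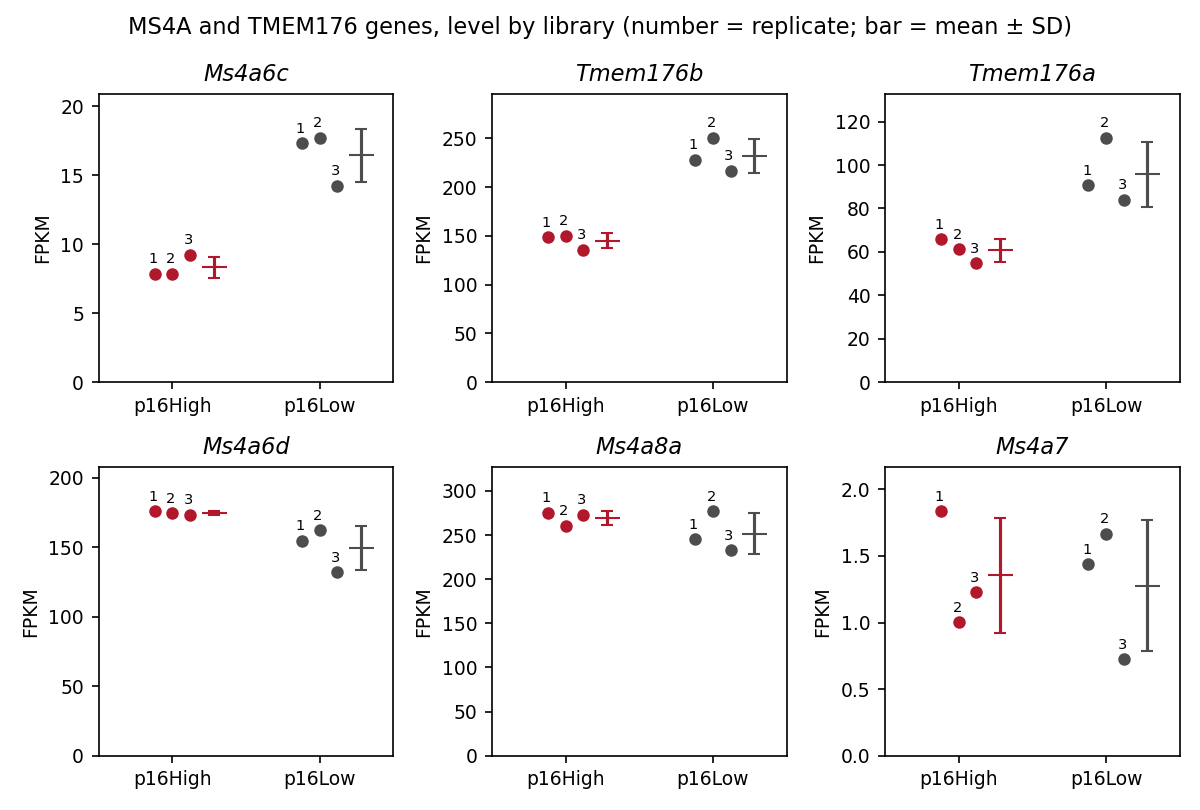
Level in FPKM of the 6 tested genes in each library, p16High at the left and p16Low at the right of each panel; points are libraries with their replicate number and bars are the mean ± SD of 3 libraries. The p16High points of Ms4a6c, Tmem176b and Tmem176a lie below every p16Low point, those of Ms4a6d lie above, and those of Ms4a8a and Ms4a7 overlap.

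Ms4a8a (chr19:11067471-11081102, minus strand) was the most abundant of the 10 genes in both groups. It stood at 275, 260.4 and 273 FPKM in the p16High libraries, against 245, 277 and 233 FPKM in the p16Low libraries. The ranges overlap, since p16Low replicate 2 held the highest value of all. The means were 269.7 ± 8.06 FPKM in p16High, against 251.7 ± 22.9 FPKM in p16Low (SD, n = 3 each), a log2 fold change of 0.10 ± 0.12 (SE) that did not pass the threshold. By mean level Ms4a8a ranked 434 among the 10895 genes tested.

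Ms4a6d (chr19:11586604-11604849, minus strand), the partner of Vsig4, was the second most abundant of the Ms4a genes. Its levels were 176, 174 and 173 FPKM in p16High, against 155, 162 and 132 FPKM in p16Low. The p16High libraries were nearly equal and all lay above the p16Low libraries, among which replicate 3 was lowest. The mean was 174.6 ± 1.32 FPKM in p16High, against 149.5 ± 15.8 FPKM in p16Low, a ratio of 1.17. The log2 fold change of 0.23 ± 0.13 (SE) did not pass the threshold.

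Ms4a6c (chr19:11469366-11482192, plus strand), whose own function in macrophages is little described, was the clearest difference among the Ms4a genes. It stood at 7.88, 7.87 and 9.23 FPKM in p16High, against 17.3, 17.7 and 14.2 FPKM in p16Low. Every p16High library was below every p16Low library, with a gap between the highest p16High and the lowest p16Low value wider than the spread within p16High. It was covered by 185, 191 and 189 reads in p16High, against 397, 459 and 356 in p16Low. Ms4a6c fell in p16High, at 8.32 ± 0.782 FPKM against 16.4 ± 1.91 FPKM in p16Low (SD, n = 3 each), a log2 fold change of -0.90 ± 0.16 (SE). Relative to its close copy Ms4a6d, Ms4a6c stood at a ratio of 0.0448 to 0.0532 in p16High, against 0.108 to 0.112 in p16Low.

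An antisense gene bears on the level of Ms4a6c. BE692007, a processed transcript on the minus strand (chr19:11470166-11484578), overlaps Ms4a6c over 12027 bases, and 49.6% of the 50-base windows of Ms4a6c transcripts also occur on its opposite strand. Its levels were 0.449, 0.190 and 0.257 FPKM in p16High (16, 7 and 8 reads), against 1.21, 0.967 and 0.712 FPKM in p16Low (42, 38 and 27 reads). BE692007 too was lower in all p16High libraries, though under the level for testing. The labels do not say whether reads were counted by strand. Within the stretches they share, reads of Ms4a6c and of BE692007 therefore cannot be told apart, and the level of Ms4a6c is uncertain to that extent.

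Tmem176b (chr6:48833818-48841496, minus strand) and Tmem176a (chr6:48840919-48847071, plus strand) lie head to head and share 578 bases. Tmem176b stood at 148, 149.9 and 136 FPKM in p16High, against 228, 251 and 217 FPKM in p16Low. Every p16High library was lower, and p16Low replicate 2 was the highest. Tmem176b fell in p16High, to 144.8 ± 7.66 FPKM against 231.9 ± 17.2 FPKM in p16Low (SD, n = 3 each), a log2 fold change of -0.67 ± 0.12 (SE).

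Tmem176a was separated in the same way at a lower level, with 65.7, 61.3 and 54.9 FPKM in p16High, against 90.8, 113 and 84.1 FPKM in p16Low. The groups did not overlap, and the spread was wider in p16Low, where replicate 2 was again the highest. The means were 60.6 ± 5.44 FPKM in p16High, against 95.8 ± 15.0 FPKM in p16Low, with a log2 fold change of -0.64 ± 0.15 (SE) that did not pass the threshold. By limma, the adjusted p was 0.0431 for Tmem176b and 0.0450 for Ms4a6c, just inside the threshold, and 0.134 for Tmem176a, the next outside it. The calls of Tmem176b and Ms4a6c were lost when any single library other than p16Low replicate 2 was left out, that is p16High replicate 1, 2 or 3 or p16Low replicate 1 or 3, and without p16Low replicate 2 all of Ms4a6c, Tmem176a and Tmem176b passed. Neither Ms4a6c nor Tmem176b passed with no filter on low values or with limma-voom on recovered reads, and Tmem176b did not with median-of-ratios scaling. Of the 50-base windows, 0.333% of those of Tmem176a and 0.476% of those of Tmem176b occur in the other gene, on the opposite strand.

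Ratios between the genes within a library do not depend on how the libraries are scaled to each other. Tmem176a stood at 0.404 to 0.443 of Tmem176b in p16High and at 0.388 to 0.449 in p16Low, so the pair kept overlapping proportions while both were lower in p16High. Tmem176b stood at 0.498 to 0.576 of Ms4a8a in p16High and at 0.905 to 0.931 in p16Low, with a wide gap between the groups. The summed level of the 10 genes was 649 to 676 FPKM in p16High and 682 to 823 FPKM in p16Low. Of that sum, the Tmem176 pair made up 29.4% to 32.2% in p16High and 43.2% to 44.2% in p16Low, and Ms4a8a with Ms4a6d made up 66.3% to 68.8% in p16High and 53.4% to 54.2% in p16Low. These ratios restate the differences above on another scale and are no separate evidence.

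**Figure D2:**
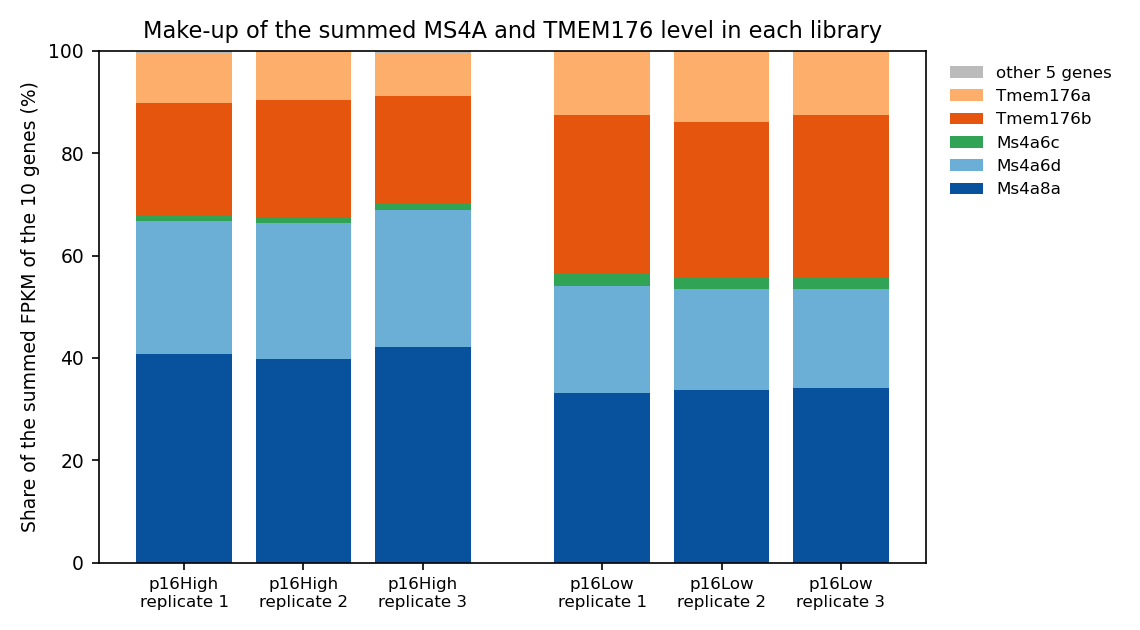
Share of the summed FPKM of the 10 genes taken by each gene, in percent, with 1 bar per library, p16High at the left and p16Low at the right. The orange Tmem176 segments fill 29.4% to 32.2% of the p16High bars and 43.2% to 44.2% of the p16Low bars.

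**Figure D3:**
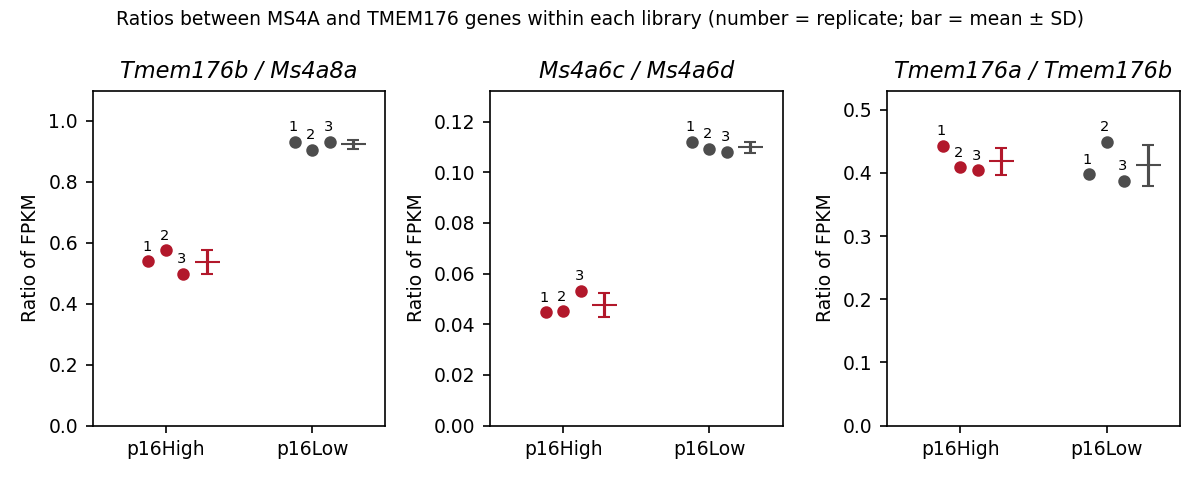
Ratio of FPKM between gene pairs in each library, p16High at the left of each panel; points are libraries with their replicate number and bars are the mean ± SD of 3 libraries. Tmem176b relative to Ms4a8a and Ms4a6c relative to Ms4a6d are lower in every p16High library, while Tmem176a relative to Tmem176b overlaps between the groups.

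Levels per length gave the same first place in both groups and a change of order below it. In p16High the order of mean FPKM was Ms4a8a, Ms4a6d, Tmem176b, Tmem176a, Ms4a6c, Ms4a7, Ms4a6b and Ms4a4c, with Ms4a4a and Ms4a14 at 0. In p16Low Tmem176b came before Ms4a6d, the other genes from Ms4a8a to Ms4a4c kept their places, and Ms4a4a stood above Ms4a14, which was at 0. In p16High the ranges of neighbours in this order overlapped for Ms4a6b and Ms4a4c and for no pair above them. In p16Low those of Ms4a8a and Tmem176b, of Ms4a7 and Ms4a6b, of Ms4a6b and Ms4a4c, and of Ms4a4c and Ms4a4a overlapped. The places were the same with the longest transcript or the deposited gene length in place of the mean transcript length, a check chosen after the data were seen.

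The other Ms4a genes were low. Ms4a7 (chr19:11321039-11336146, minus strand), used as a marker of macrophages at the borders of the mouse brain, stood at 1.84, 1.00 and 1.23 FPKM in p16High, against 1.44, 1.67 and 0.722 FPKM in p16Low. The groups overlapped widely, on 31 to 55 reads a library in p16High and 23 to 55 in p16Low, and the log2 fold change was 0.06 ± 0.23 (SE).

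Ms4a6b (chr19:11516512-11531256, plus strand), whose start region resembles that of Ms4a6c, varied more within the groups than between them. It had 31, 1 and 23 reads in p16High (0.854, 0.0267 and 0.727 FPKM), against 6, 14 and 28 reads in p16Low (0.170, 0.350 and 0.725 FPKM). p16High replicate 2 held a single read, while p16High replicate 1 held the most of all 6 libraries. Ms4a4c (chr19:11404770-11427246, plus strand) had 2, 11 and 6 reads in p16High, against 6, 8 and 2 reads in p16Low, with no separation. Of its 50-base windows 7.73% also occur in its neighbour Ms4a4b.

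Ms4a4a (chr19:11375523-11392790, plus strand), the mouse gene named after the Dectin-1 partner, had 0 reads in the 3 p16High libraries, against 2, 0 and 3 reads in the p16Low libraries. A count of 0 allows up to 3 reads, or 0.183 to 0.217 FPKM, in a p16High library, so a difference was not detectable at this depth. Ms4a14 (chr19:11301249-11314454, minus strand) had 0 reads in all 6 libraries, which allows up to 0.0354 to 0.0447 FPKM. These limits cover counting error only.

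The rest of the Ms4a genes, 11 in the table, were mostly silent. The 19 Ms4a genes span chr19:10962293-11640851, and 8 of the 11 were at 0 in every library (Ms4a2, Ms4a3, Ms4a5, Ms4a10, Ms4a12, Ms4a13, Ms4a15 and Ms4a18). Ms4a4d had 1 read in 1 library, and Ms4a4b, a gene of T cells in mice, had 0 to 20 reads in p16High and 3 to 16 in p16Low. Ms4a1 (CD20) stood at 4.45, 3.65 and 5.03 FPKM in p16High, against 8.88, 7.69 and 9.41 FPKM in p16Low. The groups did not overlap, at means of 4.38 ± 0.697 FPKM in p16High, against 8.66 ± 0.882 FPKM in p16Low (SD, n = 3 each), and the adjusted p by limma was 0.0833, which misses the threshold. Ms4a1 passed as lower without p16Low replicate 2 and with median-of-ratios scaling.

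Of the 3 neighbours tested here (AW112010, Ccdc86 and Gm6501) 0 passed by limma. The lincRNA AW112010, which lies beside Ms4a8a, averaged 49.4 ± 7.08 FPKM in p16High, against 65.4 ± 14.7 FPKM in p16Low (SD, n = 3 each; limma adjusted p = 0.733). Ccdc86, a nucleolar protein gene left of the cluster, averaged 7.16 ± 0.960 FPKM in p16High, against 8.02 ± 0.342 FPKM in p16Low (limma adjusted p = 0.795). The pseudogene Gm6501, inside the cluster, averaged 2.04 ± 0.551 FPKM in p16High, against 1.89 ± 0.435 in p16Low (limma adjusted p = 0.924). Beside the Tmem176 pair, the immune GTPase genes Gimap5 and Gimap3 were under the level for testing. Gimap5 averaged 1.59 FPKM in p16High, against 0.747 FPKM in p16Low, Gimap3 averaged 0.674 FPKM in p16High, against 1.11 in p16Low, and Aoc1 on the other side was at 0 in all 6 libraries. Oosp2, an oocyte gene right of the Ms4a cluster, was above 0 in p16High replicate 1 (0.0934 FPKM) and p16Low replicate 1 (0.575 FPKM) and at 0 in the other 4 libraries.

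Among 12 genes described as partners or targets of these proteins, 11 were tested, and 1 rose and 0 fell in p16High. Of all 10895 genes tested, 19 passed as higher and 78 as lower. The median log2 fold change of the 11 was 0.16, against 0.05 for all genes, and 0.03 without p16Low replicate 2. Vsig4, the complement receptor that acts with Ms4a6d, rose to 1136 ± 10.3 FPKM in p16High, against 669.6 ± 58.6 FPKM in p16Low, a log2 fold change of 0.77 ± 0.12 (SE; limma adjusted p = 0.0255). Its values were 1148, 1131 and 1129 FPKM in p16High, against 707, 602 and 699 FPKM in p16Low, with no overlap. The call of Vsig4 was lost when any 1 library other than p16Low replicate 2 was left out, and with no filter on low values.

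The remaining partners did not pass. Tyrobp, the DAP12 adaptor of myeloid receptors, averaged 4360 ± 487 FPKM in p16High, against 5062 ± 1378 FPKM in p16Low. Trem2, a DAP12 receptor whose soluble form is tied to MS4A genes in human genetics, averaged 24.8 ± 2.06 FPKM in p16High, against 18.5 ± 3.23 in p16Low, and passed as higher only without p16Low replicate 2. Clec7a, which encodes Dectin-1, averaged 94.0 ± 2.92 FPKM in p16High, against 81.0 ± 16.9 FPKM in p16Low. Nlrp3, the inflammasome sensor, averaged 5.83 ± 0.497 FPKM in p16High, against 5.09 ± 1.61 in p16Low, and Il1b, whose protein the inflammasome matures, averaged 1.62 ± 0.829 FPKM in p16High, against 1.84 ± 1.24 FPKM in p16Low.

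Of the 8 genes listed for MHC class II chains, their processing and their control, 7 were tested. In p16High 4 fell and 0 rose, with a median log2 fold change of -1.28, where 0.716% of all genes passed as lower. B cells also express these chains. The 8 B-cell markers listed summed to 140 to 207 FPKM in p16High libraries and 227 to 244 FPKM in p16Low libraries. The largest part of the sum was Igkc, whose values overlapped between the groups. The part of the B-cell markers in the MHC class II difference was not tested. H2-Aa, an antigen-presenting chain, fell to 97.3 ± 2.54 FPKM in p16High, against 262.7 ± 25.1 FPKM in p16Low (log2 fold change -1.42 ± 0.12, SE; limma adjusted p = 0.00199). H2-Ab1, H2-Eb1 and Cd74, the invariant chain, fell by 1.28, 1.54 and 1.44 on the log2 scale. These 4 passed under every alternative fit. H2-DMa, H2-DMb1 and Ctss did not pass, and Ciita was under the level for testing.

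Of the 10 tested interferon-induced genes, 0 passed by limma and 0 by limma-voom. An unadjusted p under 0.05 by limma was reached by 3, as it was by 787 of the 10895 genes tested. The median log2 fold change of the 10 was 0.33, with 9 values above 0 and 1 below. Higher in p16High without overlap were 5, beside 8.40% of all genes. Rtp4, an interferon-induced chaperone of receptors, averaged 75.4 ± 3.17 FPKM in p16High libraries and 64.1 ± 1.79 FPKM in p16Low libraries. Irf7, a factor of the interferon response, averaged 53.6 ± 2.66 FPKM in p16High, against 33.3 ± 7.59 in p16Low, and it and Oasl1 passed as higher without p16Low replicate 2. Of the 12 tested genes induced by glucocorticoid or IL-4 in macrophages, the setting in which Ms4a8a has been described, 0 passed by limma and 0 by limma-voom, with 4 at an unadjusted p under 0.05. Their median log2 fold change was 0.02, and -0.16 without p16Low replicate 2. Retnla, a secreted protein of alternative activation, averaged 2524 ± 349 FPKM in p16High libraries and 3239 ± 743 FPKM in p16Low libraries. Arg1, the arginase of the same state, averaged 1069 ± 22.6 FPKM in p16High, against 803 ± 27.9 FPKM in p16Low, while Chil3, a chitinase-like protein, stood at 18.0, 14.8 and 19.0 FPKM in p16High, against 47.1, 28.1 and 43.3 FPKM in p16Low. Without p16Low replicate 2, Arg1 passed as higher and Chil3 as lower, the last also with median-of-ratios scaling.

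Summed markers of small peritoneal or monocyte-derived macrophages and of B cells were also lower in every p16High library, as Ms4a6c and the Tmem176 pair were. The part of these markers in those differences was not tested, and each sum mostly follows its most abundant genes. The sum of the 7 macrophage markers was lower as well, at 78841 to 80024 FPKM in p16High and 83300 to 87035 FPKM in p16Low, most of it Lyz2. Of those macrophage markers, 5 had a log2 fold change above 0 and 2 below. The 6 markers of small peritoneal or monocyte-derived macrophages summed to 2140 to 2209 FPKM in p16High and 2496 to 2539 FPKM in p16Low, most of it Fn1 and Lyz1. Of these, 4 were tested, 0 passed by limma or by limma-voom, with 2 at an unadjusted p under 0.05, beside 787 of the 10895 genes tested. Lower in p16High without overlap were 3 (Lyz1, S100a4 and Plac8), beside 7.45% of all genes, while Fn1 overlapped. Plac8 averaged 7.62 ± 2.28 FPKM in p16High, against 18.3 ± 3.76 in p16Low, and Ccr2, the monocyte chemokine receptor, averaged 0.141 ± 0.00962 FPKM in p16High, against 0.874 ± 0.231 FPKM in p16Low. Plac8 and S100a4 passed as lower without p16Low replicate 2. The 5 markers of large peritoneal macrophages summed to 4746 to 4945 FPKM in p16High and 4099 to 4330 FPKM in p16Low, with 0 passing by limma or by limma-voom and 3 at an unadjusted p under 0.05. All 5 had a log2 fold change above 0. Higher in p16High without overlap were 3 (Cd5l, Selp and Timd4), beside 8.40% of all genes.

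Of the 8 B-cell markers, 7 were tested, and 0 passed by either limma or limma-voom. An unadjusted p under 0.05 by limma was reached by 5, beside 787 of the 10895 genes tested. Lower in p16High without overlap were 3 (Cd79a, Cd79b and Ms4a1), beside 7.45% of all genes. Bank1 and Fcmr were not lower, at log2 fold changes of 0.05 and 0.08. Cd79a, a chain of the B-cell receptor, averaged 6.80 ± 1.56 FPKM in p16High, against 13.1 ± 1.04 in p16Low, and like Ms4a1 it passed as lower without p16Low replicate 2. The 6 dendritic cell markers summed to 14.8 to 25.0 FPKM in p16High and 8.32 to 10.1 FPKM in p16Low, most of it from Cd209a, with 18.2 ± 4.63 FPKM in p16High libraries and 8.36 ± 0.848 FPKM in p16Low libraries (limma adjusted p = 0.0729). Cd209a passed as higher without p16Low replicate 2.

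Lists of other blood cells were at low levels. The 7 mast cell markers summed to 1.15 to 3.64 FPKM in p16High and 0 to 0.235 FPKM in p16Low, with Kit and Ms4a2 at 0 in every library. The 6 markers of granulocytes and their precursors summed to 22.5 to 32.2 FPKM in p16High and 28.4 to 50.6 FPKM in p16Low, nearly all of it S100a8, with Ms4a3, Mpo, Ngp and S100a9 at 0. The 9 T and NK cell markers, Ms4a4b among them, summed to 0 to 0.859 FPKM in p16High and 0.160 to 0.898 FPKM in p16Low, with Trac, Trbc2, Ncr1 and Klrb1c at 0.

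The genes nearest in pattern were found by the root mean square difference of log2(FPKM + 1) over the 6 libraries, each gene centred on its mean. Nearest to Ms4a6c were Nasp, a histone chaperone gene, at 0.0906, Smc4, a condensin subunit gene, at 0.0927, and 3830403N18Rik at 0.0995. Nearest to Tmem176b were Cd2, a lymphocyte adhesion gene, at 0.0605, Ethe1, a mitochondrial sulfur dioxygenase gene, at 0.0735, and Tmem176a at 0.0780. Nasp averaged 11.1 ± 0.909 FPKM in p16High, against 20.1 ± 2.70 in p16Low, and Cd2 averaged 5.20 ± 0.369 FPKM in p16High, against 8.86 ± 1.20 FPKM in p16Low. By this measure Tmem176a, which shares a start region with Tmem176b, came next after Cd2 and Ethe1 among all tested genes. The 1 added to FPKM shrinks the differences of low genes such as Cd2, so this order may depend in part on it.

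**Figure D4:**
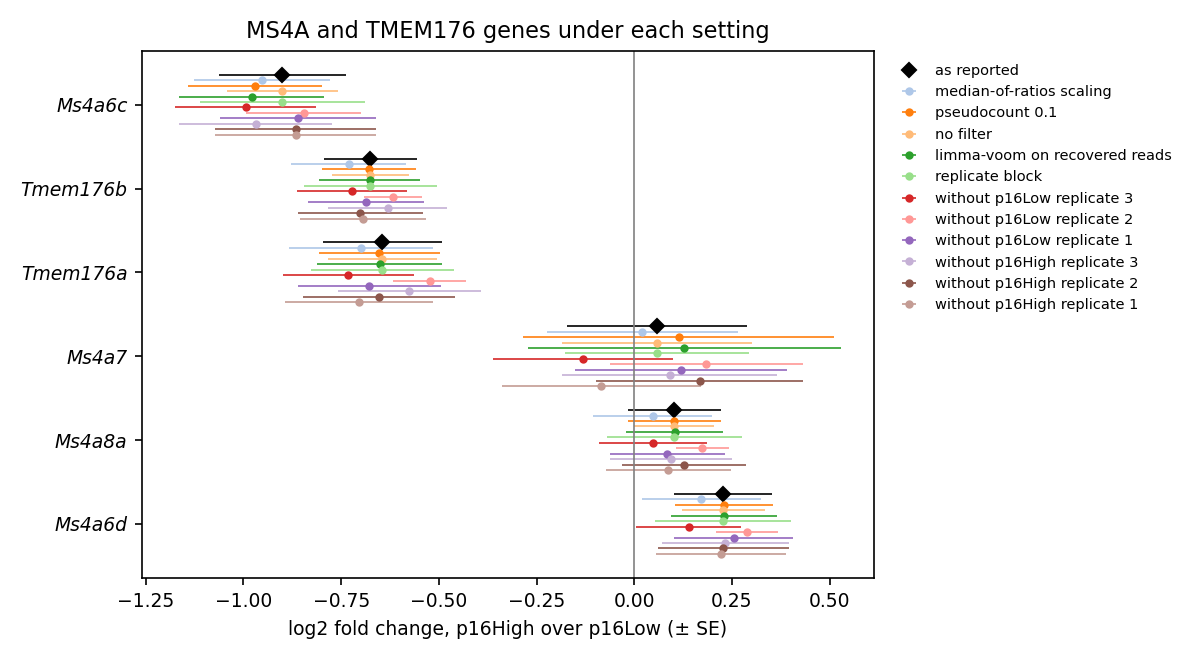
Log2 fold change of the 6 tested genes, p16High over p16Low, on the horizontal axis, with bars of 1 SE; the black diamond is the reported value and the coloured points are the alternative fits. Ms4a6c, Tmem176b and Tmem176a stay below 0 and Ms4a6d and Ms4a8a above 0 in every fit, while Ms4a7 lies on both sides of 0.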

How the data were processed

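The authors deposited 1 table of FPKM values per gene for 6 libraries. The submitters' processing notes name HTSeq 0.6.1, TopHat2 2.0.12 and Bowtie2 2.2.3, with no role. Build and strand setting were not given in the sources used here. Gene starts and ends matched GENCODE M21 (GRCm38) for 98.3% of the IDs found there, and GRCm38 coordinates are printed. Reads were worked back from FPKM with the floor of the mean transcript length. For 96.2% of 22557 genes above 0 they were whole in every library within 0.001 of a read. Recovered reads served for depth, low genes and the limma-voom alternative.

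FPKM are not counts, so no count model was the main test. The 10895 genes that reached an FPKM of 1 in 3 libraries entered limma 3.58.1 (R 4.3.3) as log2(FPKM + 1), with group only, a trended empirical Bayes fit and Benjamini-Hochberg adjustment at 0.05. Fold changes on this scale understate those of low genes. The fit was also run on simulated data, with spread taken from the p16High libraries and no library standing apart as p16Low replicate 2 did. Errors are SD over 3 libraries, or SE for log2 fold changes. Alternatives were median-of-ratios scaling, a pseudocount of 0.1, no filter, limma-voom, the replicate number as a block and each library left out in turn. The genes and lists were chosen with earlier results of these data known. The rule for named genes took all 10 genes, the remaining Ms4a genes, the immediate neighbours of both loci, the nearest 3 genes in pattern to Ms4a6c and Tmem176b, and, of each of the 4 context lists, the genes past the threshold and the 2 of highest mean FPKM. Trem2, Clec7a, Nlrp3, Il1b, Oasl1, Chil3, AW112010, Gm6501, BE692007 and the single cell type markers given with values were chosen after their values were seen.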

Additional observations from a re-analysis of the deposited data

How the results depend on the processing

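Passing the threshold depended on the fit more than direction did. Of the 10 genes, 2 passed as reported, 1 (Ms4a6c) with median-of-ratios scaling, 0 with no filter, 0 with limma-voom and 0 with the replicate number as a block, and 0 to 3 when a library was left out. A pseudocount of 0.1 kept 2. Unadjusted p under 0.05 was reached by 787 of all genes as reported, 1325 with no filter, 748 with limma-voom and 626 with the block. Over all genes 97 passed as reported, 9 with no filter and 17 to 301 when a library was left out, the highest without p16Low replicate 2. Over the partner and context lists 5 genes passed as reported and 4 to 10 when a library was left out. The log2 fold change ran from -0.99 to -0.85 for Ms4a6c, -0.73 to -0.62 for Tmem176b, -0.73 to -0.52 for Tmem176a, 0.14 to 0.29 for Ms4a6d, 0.05 to 0.17 for Ms4a8a and -0.13 to 0.18 for Ms4a7. Over these fits the adjusted p ran from 0.00564 to 0.284 for Ms4a6c, from 0.000318 to 0.269 for Tmem176b and from 0.00675 to 0.603 for Tmem176a. The cause of the lost calls was not tested. Same-numbered libraries correlated at -0.189, -0.173 and 0.014 in their deviations from the group means, and the numbers were not taken as pairs. Each group held 3 libraries and p16Low replicate 2 stood apart, so this check cannot exclude pairing. The replicate block moved the count over all genes to 67. With the block Vsig4 did not pass and Chil3 passed as lower. Genes under about 3 reads a library could not be compared at this depth.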
